A study of Homo sapiens with 12 samples.

Results

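CDH1, ECM1, RAB31 and HTR2B are the genes that mark class 2 uveal melanoma in the 12-gene expression panel used to grade that tumour, and PRAME is a further prognostic gene read beside the panel. They are described here in 2 uveal melanoma cell lines, MP38 and 92.1, with and without the ATR inhibitor VE-822. The genes were taken by symbol from the deposited count tables, where each symbol named 1 feature. They are 5 of 48283 features, of which 42342 stood in the MP38 table, 44938 in the 92.1 table and 38997 in both. All 5 were present in both tables.

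The study has 12 RNA-seq libraries in 4 groups of 3. MP38 cells and 92.1 cells, both established human lines, were each kept for 72 hours with DMSO, the solvent, or with VE-822 (berzosertib). ATR is a kinase that slows the cell cycle and protects replication forks under DNA replication stress. The VE-822 dose was set in each line to leave about 40% of cells viable, so the DMSO groups lack both the drug and that loss of viability. No other agent or genetic change is named for any group. Each genetic background is a single line, so a difference between the lines is not a difference between tumour classes. The labels do not state whether replicate libraries come from separate cultures, so p-values measure the spread between these libraries, which may be technical.

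Library totals were 54415628 to 63638976 counts in MP38 and 112374503 to 137664800 counts in 92.1, so line, table and depth cannot be told apart. Melanocyte markers (MITF, SOX10, PMEL, MLANA, TYR, TYRP1, DCT and S100B) all had counts in every group, with a summed level of 4274 to 5274 CPM (counts divided by the scaled library size) in MP38 and 19875 to 21523 CPM in 92.1. The sums hide wide differences. Between the DMSO groups, where 79.9% of all genes tested were called, 4 markers were higher in 92.1, with TYRP1 at 427 times its MP38 level. The other 4 were lower, with DCT at 0.0217 and S100B at 0.000511 times. Of the other markers checked, those of fibroblasts, endothelium and leukocytes summed to at most 8.97, 3.69 and 1.38 CPM in any library. Epithelial markers, mostly KRT18 and KRT8, summed to 49.1 to 65.9 CPM in MP38 and 1.25 to 3.45 CPM in 92.1. DMSO library 3 of 92.1 stood apart from its group. Its median absolute log2 difference from the other two was 0.18, against 0.05 between those, and 277 of 15212 genes (1.84%) were at least 2-fold above their mean in it. Calls of named genes in 92.1 that change without this library are given both ways. In bulk RNA, fewer cells that express a gene and less RNA per cell cannot be told apart.

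CDH1 encodes E-cadherin, the adhesion molecule of epithelial adherens junctions. ECM1 encodes a secreted glycoprotein of the extracellular matrix. RAB31 is a small GTPase of the RAB5 subfamily that directs vesicles between the trans-Golgi network and endosomes. HTR2B is a serotonin receptor that signals through Gq-type G proteins, the same G proteins whose mutation is the usual first event in uveal melanoma. PRAME is a cancer-testis antigen, normally restricted to testis and a few other tissues, that serves as a substrate receptor of a cullin-2 ubiquitin ligase and represses retinoic acid receptor signalling. In class 2 tumours, which carry the higher risk of metastasis, the 4 panel genes are the ones that are raised, while the other discriminating genes of the panel are lowered.

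In the deposited coordinates (GRCh38.p13), CDH1 (ENSG00000039068.20) spans chr16:68737292-68835537 and ECM1 (ENSG00000143369.15) spans chr1:150508062-150513789, both on the plus strand. RAB31 (ENSG00000168461.13) spans chr18:9708275-9862551 on the plus strand. HTR2B (ENSG00000135914.6) lies at chr2:231108230-231125042 on the minus strand, inside the span of PSMD1, a proteasome subunit gene on the plus strand. In GENCODE 29, 559 of the 2246 exonic bases of HTR2B are shared with PSMD1 exons. Whether counting used strand is not given in the sources used here, so reads of the shared bases are uncertain. In MP38, PSMD1 had 5527 to 6356 counts per library where HTR2B had 0 to 5. PRAME (ENSG00000185686.18) spans chr22:22547701-22559361 on the minus strand and shares 19 bases with an antisense long noncoding RNA gene, which had a mean of 2.89 CPM in the MP38 DMSO libraries and no count in those of 92.1.

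The sequences ahead of ECM1, RAB31 and PRAME are shown because they differ widely in CG content where transcription starts, and because ECM1 and RAB31 are the genes of the set that rose with VE-822 in both lines. They come from RefSeq (GRCh38.p14), which matched 3 of the 5 genes in the promoter table. Each printed stretch is the part of the 250 bases before the RefSeq start that lies outside the gene in the deposited tables and in GENCODE 29. It covers chr1:150507859-150508061 for ECM1, chr18:9708051-9708164 for RAB31 and chr22:22559362-22559515 (minus strand) for PRAME. Capitals mark the AP-1 motif TGANTCA in ECM1 and CG dinucleotides in RAB31 and PRAME.
ECM1: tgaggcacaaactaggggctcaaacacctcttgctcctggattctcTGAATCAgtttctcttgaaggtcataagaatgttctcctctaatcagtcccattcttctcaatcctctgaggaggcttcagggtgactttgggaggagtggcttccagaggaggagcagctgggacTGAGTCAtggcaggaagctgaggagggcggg
RAB31: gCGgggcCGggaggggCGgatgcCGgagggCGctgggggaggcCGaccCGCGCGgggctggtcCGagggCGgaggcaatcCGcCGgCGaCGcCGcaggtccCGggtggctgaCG
PRAME: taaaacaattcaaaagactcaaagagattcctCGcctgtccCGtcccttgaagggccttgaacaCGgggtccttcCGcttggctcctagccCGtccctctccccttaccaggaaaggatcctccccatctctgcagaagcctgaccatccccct
RefSeq gives 3 starts for PRAME, and the one printed is the farthest upstream, the only one whose window reaches outside the gene. The full 250-base windows held 1 CG dinucleotide for ECM1, 40 for RAB31 and 9 for PRAME (8 and 4 at its other starts), against a median of 11 over 35116 RefSeq promoters. Fewer CG than in the RAB31 window were found in 97.8% of those promoters, against 6.06% for ECM1 and 45.9% for PRAME. The AP-1 motif, searched on both strands, occurred 2 times in the ECM1 window, at 204 and 78 bases before the start, and 6.57% of the promoters held it. It was not among the letters of the RAB31 or PRAME windows. RAB31 held CACGTG, an E-box form that MITF can bind, 60 bases before its start, as did 6.34% of promoters, and the GC box GGGCGG (42.6% of promoters) occurred 3 times in RAB31, 1 time in ECM1 and 2 times at 1 of the other PRAME starts. The E-box CACCTG, the letters bound by SNAI and ZEB repressors, was in none of these windows and in 17.5% of promoters. These are letter matches and not measured binding.

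Per transcript length, PRAME was the most abundant of the 5 genes in MP38 and RAB31 was the most abundant in 92.1. In FPKM, the deposited values scaled for gene length and library total, the MP38 DMSO libraries had a mean of 188 for PRAME, 10.1 for RAB31, 5.98 for ECM1, 0.015 for CDH1 and 0.0123 for HTR2B. PRAME ranked between 116 and 122 among 19092 protein-coding genes in these libraries. The 92.1 DMSO libraries had a mean of 15.1 FPKM for RAB31, 5.25 for HTR2B, 0.323 for ECM1 and 0.0557 for CDH1, while PRAME was at 0.002 FPKM in 1 library and listed at 0 in the other two. Neither line had all 5 genes at a high level. MP38 combined high PRAME, RAB31 at 10.1 FPKM and ECM1 at 5.98 FPKM with an HTR2B level near 0. The 92.1 line combined RAB31 at 15.1 FPKM and HTR2B at 5.25 FPKM with almost no PRAME.

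**Figure D1:**
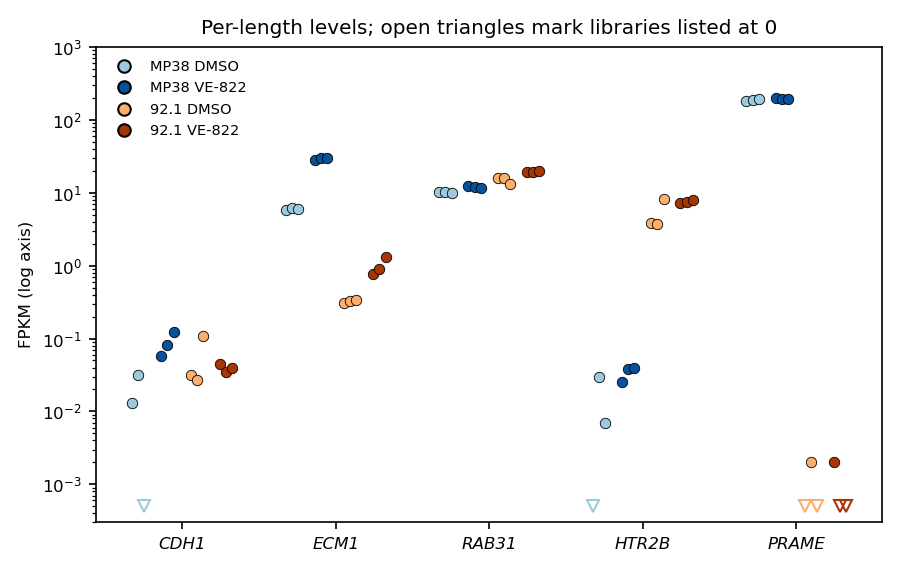
FPKM of each gene in each of the 12 libraries on a log axis, 3 points per group, with open triangles at the foot for libraries listed at 0. PRAME lies between 184 and 197 in MP38 and at 0.002 or 0 in 92.1, HTR2B lies between 3.71 and 8.13 in 92.1 and at or below 0.039 in MP38, and CDH1 is at or below 0.123 in every library.

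Between the DMSO groups, 3 of the 5 genes were called higher in 92.1 (HTR2B, RAB31, CDH1) and 2 lower (ECM1, PRAME), by edgeR's quasi-likelihood test with Benjamini-Hochberg adjustment over all genes. The lines differ at most genes. Of the 22856 genes tested, 79.9% were called, 38.9% as higher in 92.1 and 41.0% as lower. CDH1, HTR2B and PRAME passed the count filter only through the line where they were higher, which fixes their direction. The 5 of 5 called is therefore a description and is not read as a result about the set.

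PRAME showed the widest contrast between the lines of the 5 genes. MP38 DMSO libraries had 43888, 43162 and 47267 PRAME counts, or 649.7, 649.8 and 689 CPM. The 92.1 DMSO libraries had 0, 1 and 0 counts. Over the summed libraries PRAME was 219258 times higher in MP38, with a 95% counting interval (exact, Clopper-Pearson) of 39352 to 8660310, which covers counting error only. The VE-822 groups showed the same contrast, with 40723, 45202 and 43374 counts in MP38 against 1, 0 and 0 in 92.1.

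HTR2B ran the other way. The 92.1 DMSO libraries had 952, 963 and 2181 HTR2B counts (9.12, 8.66 and 18.9 CPM), and MP38 had 0, 4 and 1 counts (0, 0.0602 and 0.0146 CPM). No value of one line reached the range of the other, which was so for 82.5% of all genes tested. The ratio of the summed levels was 502 (95% counting interval 215 to 1546), and it rested on 5 counts in MP38. In the test HTR2B was called higher in 92.1 with an adjusted p of 1.06e-06. It passed the count filter only through 92.1, which fixes that direction, so the call adds no support to the counts.

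ECM1 was at 18.1, 18.9 and 18.7 CPM in the MP38 DMSO libraries and at 1.10, 1.20 and 1.21 CPM in those of 92.1. These ranges lie far apart, and the log2 difference (92.1 minus MP38) was -4.00 ± 0.0841 (SE, adjusted p = 6.37e-10). RAB31 was at 51.5, 51.1 and 51.1 CPM in MP38 and at 95.4, 94.5 and 77.6 CPM in 92.1, a log2 difference of 0.79 ± 0.0800 (adjusted p = 1.54e-05). It was the only one of the 5 genes with a mean above 10 FPKM in both lines, and the lowest 92.1 library, library 3, still exceeded every MP38 library.

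CDH1 was near the detection limit in both lines. MP38 DMSO libraries had 5, 12 and 0 CDH1 counts (0.0740, 0.181 and 0 CPM) and 92.1 had 22, 20 and 81 (0.211, 0.180 and 0.703 CPM). The ranges overlap, since library 2 of MP38 equals library 2 of 92.1 to 2 decimals. The fitted difference of 2.10 ± 0.836 passed the threshold narrowly (adjusted p = 0.0437). It missed it without DMSO library 3 of 92.1 (1.21, adjusted p = 0.0759) and without DMSO library 1 or 3 of MP38 (2.03 and 1.52, highest adjusted p 0.122), and without DMSO library 2 of MP38 it grew to 3.28.

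The other cancer-testis antigens, genes that like PRAME are normally restricted to the germ line, also had a higher summed level in MP38. Of 41 listed, 33 were in the tables and 10 could be tested, 8 of them lower in 92.1 and 2 higher. Those near 0 in 92.1 passed the count filter only through MP38, which fixes their direction, so this count is a description and is not set against all genes. MAGEA3 had a mean of 75.8 ± 2.62 CPM (SD, n = 3) in MP38 and 0.00909 ± 0.000458 CPM in 92.1. The exception with the highest level was TEX15, a meiotic gene, at 18.5 ± 1.49 CPM in MP38 and 115 ± 18.5 CPM in 92.1. Their summed level was 309 to 320 CPM in the MP38 DMSO libraries and 106 to 140 CPM in those of 92.1, most of the latter being TEX15. Several MAGEA, CSAG and GAGE genes have near-identical copies, so their single values are uncertain.

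Under VE-822, ECM1 and RAB31 rose in both lines, CDH1 rose in MP38, and neither CDH1 in 92.1 nor PRAME in MP38 nor HTR2B in 92.1 passed the threshold. In MP38, 3 of the 4 genes tested were called higher and none lower, where 52.3% of the 21415 genes tested were called (26.9% higher, 25.4% lower). CDH1 is in that count only because its VE-822 libraries passed the count filter, which fixes its direction. In 92.1, 2 of 4 were called higher and none lower, where 39.9% of 22943 genes were called (20.3% higher, 19.6% lower). With counts scaled by library size alone, 61.7% of the 92.1 calls were higher, against 50.9% with TMM. Without DMSO library 3, 3 of 4 were called higher in 92.1, and 55.7% of all genes were called. These shares of all genes also belong beside the counts of gene lists given below. HTR2B in MP38 and PRAME in 92.1 had too few counts to be tested.

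**Figure D2:**
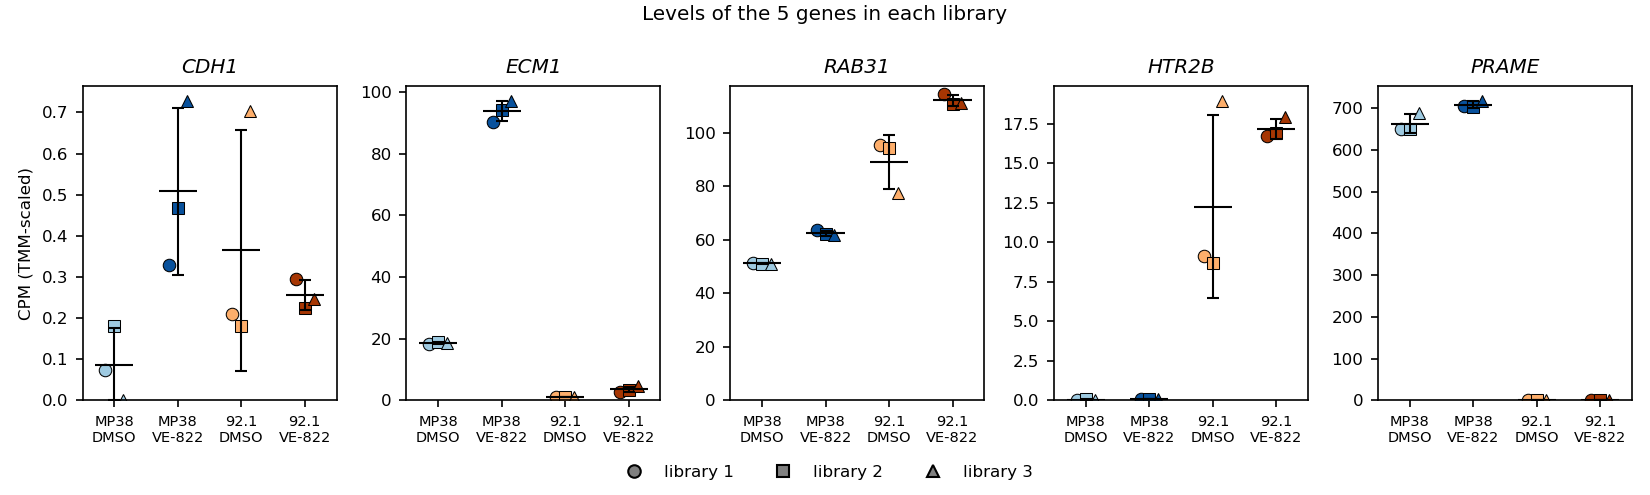
CPM with TMM scaling of each gene in each library, one panel per gene with its own axis from 0. Symbols give the library number, horizontal lines the group mean and bars 1 SD (n = 3), with the lower bar stopped at 0. ECM1 separates all 4 groups, and DMSO library 3 of 92.1 lies high for HTR2B (18.9) and CDH1 (0.703) and low for RAB31 (77.6).

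ECM1 had the clearest response. In MP38 it went from 18.1, 18.9 and 18.7 CPM with DMSO to 90.3, 94.1 and 97.0 CPM with VE-822, a log2 fold change of 2.33 ± 0.0435 (5.03-fold, adjusted p = 1.15e-18). Only 121 of the 21415 genes tested had a larger increase. Its FPKM rank among protein-coding genes moved from between 5932 and 6096 to between 1233 and 1285. In 92.1 it went from 1.10, 1.20 and 1.21 CPM to 2.76, 3.23 and 4.59 CPM, a log2 fold change of 1.55 ± 0.193 (2.93-fold, adjusted p = 3.52e-04). Library 3 of the VE-822 group was the highest, and the groups did not overlap. Even so, ECM1 in treated 92.1 cells stayed below its level in MP38 cells with DMSO, and the order of the groups was treated MP38, MP38 with DMSO, treated 92.1 and 92.1 with DMSO, with no overlap between neighbours. Fibroblast markers, whose cells also make matrix, summed to 0.355 to 0.587 CPM with DMSO and 1.54 to 2.07 CPM with VE-822 in MP38, and to 5.18 to 6.34 and 8.44 to 8.97 CPM in 92.1, with DCN at 0 in both DMSO groups. Of the 7 listed, 2 of 2 tested were higher in MP38 and 3 of 4 in 92.1. Markers this low may have passed the count filter only through the VE-822 group, which would fix their direction. The part of these markers in the ECM1 result was not tested.

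The matrix proteins reported to bind ECM1 include perlecan (HSPG2), fibulin-1 (FBLN1), MMP9, fibronectin (FN1) and laminins, of which LAMA3 and LAMB3 were listed. In MP38, 2 of the 5 tested were higher and none lower, and the median log2 change was 0.65, against -0.01 over all genes. That median is the value of LAMB3. LAMA3 (mean 0.158 CPM with DMSO) and MMP9 (0.124 CPM) passed the count filter only through the VE-822 group, which fixes their direction. FN1 and HSPG2 had values of -0.09 and -0.11, not past the threshold. In 92.1, 2 of 5 were higher and 2 lower, with a median of 0.01 against 0.03, and without DMSO library 3 it was 2 and 2 of 6 with a median of 0.23. Of all genes, 52.3% were called in MP38 and 39.9% in 92.1 (55.7% without that library). LAMB3, a laminin chain, rose in both lines, from 5.002 ± 0.180 to 7.88 ± 0.220 CPM in MP38 (log2 fold change 0.65 ± 0.0764) and from 0.278 ± 0.0995 to 0.903 ± 0.0297 CPM in 92.1 (1.65 ± 0.244). FBLN1 was at a mean of 0.069 CPM in MP38 with DMSO and far higher in 92.1, where it fell from a mean of 225 to 122 CPM (log2 fold change -0.93 ± 0.0489).

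RAB31 rose by about the same small amount in both lines. In MP38 it went from 51.5, 51.1 and 51.1 CPM to 63.5, 62.1 and 61.8 CPM, a log2 fold change of 0.28 ± 0.0371 (1.21-fold, adjusted p = 2.14e-06). In 92.1 it went from 95.4, 94.5 and 77.6 CPM to 114.4, 111 and 111 CPM, a log2 fold change of 0.29 ± 0.0754 (1.23-fold, adjusted p = 0.0143). The groups did not overlap in either line, as was so for 58.8% of genes in MP38 and 52.7% in 92.1. The 92.1 value rests partly on the low DMSO library 3. Without it the change was 0.17 ± 0.0299 (1.13-fold, adjusted p = 7.08e-05), and without VE-822 library 1 or 3 it was 0.28 and 0.29 with adjusted p of 0.0596 and 0.0550. The 95% interval of the difference between the lines ran from -0.15 to 0.23 on the log2 scale.

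Of 12 genes of the RAB5 subfamily and the early endosome, 7 were higher and 2 lower in MP38, and 2 were higher and 2 lower in 92.1, where leaving out DMSO library 3 gave 2 higher and 6 lower. EEA1, the tethering protein of early endosomes, rose in MP38 from 56.5 ± 1.15 to 102 ± 5.04 CPM (log2 fold change 0.85 ± 0.0406). RAB5B rose in 92.1 (0.42 ± 0.0484). Of 7 cargo and sorting genes of the trans-Golgi to endosome route, 5 were higher and 1 lower in MP38, and 2 higher and 3 lower in 92.1 (2 and 5 without DMSO library 3). For both lists, the share of all genes called was 52.3% in MP38 and 39.9% in 92.1 (55.7% without that library). SORT1, which encodes the sorting receptor sortilin, moved in opposite directions, with log2 fold changes of 0.36 ± 0.0395 in MP38 and -0.47 ± 0.0465 in 92.1, and that difference was itself called (-0.81 ± 0.0661, adjusted p = 9.66e-08).

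CDH1 rose in MP38 from a very low base. Its counts were 5, 12 and 0 with DMSO and 19, 30 and 44 with VE-822, or 0.0740, 0.181 and 0 against 0.329, 0.467 and 0.728 CPM. Every treated library was above every DMSO library, and the fitted log2 fold change was 2.56 ± 0.540 (adjusted p = 4.45e-04). It was 3.71 without DMSO library 2 and 1.97 without DMSO library 3, and it was called under both. CDH1 passed the count filter only through the VE-822 group, which fixes its direction, so these calls are a description. The ratio of summed levels was 6.07 (95% counting interval 3.60 to 10.9). In FPKM the treated mean was 0.087, so the gene ranked no higher than 13127 of 19092. In 92.1, CDH1 had 22, 20 and 81 counts with DMSO and 38, 29 and 27 with VE-822 (0.296, 0.225 and 0.245 CPM). The groups overlapped, and the log2 fold change of -0.56 ± 0.498 (95% interval -1.70 to 0.57, adjusted p = 0.406) did not pass the threshold. Without DMSO library 3 its sign turned, at 0.32 ± 0.332 (adjusted p = 0.433). Of 7 epithelial markers listed, 4 could be tested in MP38. 3 of these were lower and none higher, and their sum went from 54.5 to 65.9 CPM with DMSO to 49.1 to 52.3 CPM with VE-822. In 92.1, where CDH1 was not called, 3 of 5 tested epithelial markers were higher and none lower (4 and none without DMSO library 3), and the sum went from 1.25 to 2.02 CPM to 3.03 to 3.45 CPM. Their part in the CDH1 result was not tested.

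Of 9 partners of CDH1 in the adherens junction, 6 rose, 1 fell and 2 gave no call in MP38, where 52.3% of all genes were called. In 92.1, 2 were higher, 2 lower and 5 not past, a share near the 39.9% of all genes called. Without DMSO library 3, 3 were higher and 4 lower, where 55.7% of all genes were called. CTNNB1, which encodes beta-catenin, rose by 0.47 ± 0.0399 in MP38. Of the 5 other cadherins with enough counts, of 8 listed, 1 was higher and 3 lower in MP38, and 2 were higher and none lower in 92.1 (4 and none without DMSO library 3). CDH3 (P-cadherin), which lies beside CDH1 at chr16:68636189-68727468, rose in both lines, from 0.396 ± 0.144 to 0.909 ± 0.255 CPM in MP38 (log2 fold change 1.19 ± 0.280) and from 9.24 ± 0.212 to 13.9 ± 1.05 CPM in 92.1 (0.55 ± 0.0756). CDH2 (N-cadherin) fell in MP38 by 0.55 ± 0.0410 on the log2 scale.

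Of the transcription factors that repress CDH1, 5 of the 7 tested were lower and 1 higher in each line (5 lower and 2 higher in 92.1 without DMSO library 3). Of all genes, 25.4% were called lower in MP38 and 19.6% in 92.1. Without DMSO library 3, 55.7% of all genes were called in 92.1 in either direction. The median log2 fold change of these factors was -0.35 in MP38 and -0.34 in 92.1, against -0.01 and 0.03 over all genes. The factors called were partly different ones in each line. ZEB1 fell in MP38 from 44.8 ± 1.27 to 24.4 ± 1.16 CPM (log2 fold change -0.89 ± 0.0453), while ZEB2 rose there by 0.59 ± 0.0396. SNAI2 fell in 92.1 from a mean of 215 to 139 CPM (-0.66 ± 0.0463), while SNAI1 rose there from 0.643 ± 0.0688 to 2.03 ± 0.436 CPM (1.62 ± 0.187). CDH1 itself was not called under VE-822 in 92.1, and the part of these factors in the CDH1 result was not tested.

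HTR2B in 92.1 was 9.12, 8.66 and 18.9 CPM with DMSO and 16.7, 16.9 and 17.9 CPM with VE-822. The treated libraries were close together, and DMSO library 3 lay above all of them. With all 6 libraries the log2 fold change was 0.45 ± 0.265 (95% interval -0.16 to 1.05, adjusted p = 0.216). Without DMSO library 3 it was 0.88 ± 0.0579 (1.85-fold, adjusted p = 3.75e-10). With all 6 libraries and no low-count filter it was 0.41 (adjusted p = 0.0167), so the call turned on that library and on the filter. PSMD1, which shares exonic bases with it, did not move with HTR2B in that library, where PSMD1 was 0.710 times and HTR2B 2.13 times the mean of DMSO libraries 1 and 2. In MP38, HTR2B had 0, 4 and 1 counts with DMSO and 3, 5 and 5 with VE-822, a ratio of summed levels of 2.89 with a 95% counting interval of 0.966 to 10.3.

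Of 21 other genes for serotonin receptors and serotonin handling, 9 could be tested in MP38 and 5 in 92.1. In MP38, 2 were higher and 1 lower, and in 92.1 none were higher and 1 was lower (1 of 6 higher and none lower without DMSO library 3). HTR1F, 1 of those higher in MP38, passed the count filter only through the VE-822 group, which fixes its direction. TPH1, a serotonin-synthesis enzyme, fell in MP38 from a mean of 4.05 to 1.703 CPM (log2 fold change -1.26 ± 0.123). MAOA, which degrades serotonin, separated the lines in the direction opposite to HTR2B, with 29.7 ± 1.39 CPM in MP38 and 0.243 ± 0.0693 CPM in 92.1 with DMSO. Of 14 effectors and regulators on the Gq pathway, 3 were higher and 7 lower in MP38, and 1 was higher and 3 lower in 92.1 (2 and 9 without DMSO library 3). For this and the serotonin list, the share of all genes called was 52.3% in MP38 and 39.9% in 92.1 (55.7% without that library). RGS2, a negative regulator of Gq, rose in MP38 from 2.10 ± 0.0804 to 5.996 ± 0.0927 CPM (1.51 ± 0.0974). RASGRP3, which carries the Gq signal to RAS in uveal melanoma, was at 477 CPM in 92.1 and 0.711 CPM in MP38 with DMSO.

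PRAME in MP38 was 649.7, 649.8 and 689 CPM with DMSO and 705, 703 and 718 CPM with VE-822. Every treated library was above every DMSO library, but the shift was small, 0.09 ± 0.0391 on the log2 scale (95% interval 0.01 to 0.17, adjusted p = 0.0629). Such non-overlap held for 58.8% of genes in MP38. DMSO library 3 was the closest to the treated range, and without it the change was 0.11 with an adjusted p of 0.0160. DESeq2 gave 0.09 with an adjusted p of 0.0287. In FPKM, which is scaled by library total alone, the treated libraries (197, 195 and 193) did not all exceed the DMSO libraries (184, 186 and 195.1). In 92.1, PRAME had 1 count over the 3 DMSO libraries and 1 over the 3 treated ones.

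All 10 genes for PRAME's ubiquitin ligase and its retinoic acid receptor partners were called in MP38, 6 as higher and 4 as lower. In 92.1, 1 was higher and 3 lower (1 and 6 without DMSO library 3). Beside these and the next lists, 52.3% of all genes were called in MP38 and 39.9% in 92.1 (55.7% without that library). RBX1 and ELOC, subunits of the ligase, rose in MP38 by 0.87 ± 0.0531 and 0.61 ± 0.0457. EZH2, the histone methyltransferase that PRAME recruits to retinoic acid receptor targets, rose in MP38 from 66.9 ± 0.621 to 98.0 ± 2.35 CPM and fell in 92.1 from 79.7 ± 10.6 to 38.6 ± 0.983 CPM. Its response differed between the lines by -1.60 ± 0.101 (adjusted p = 4.78e-09). Of 10 retinoic acid response genes, 8 could be tested in MP38, where 2 were higher and 2 lower, and 5 in 92.1, where 4 were higher and none lower, also without DMSO library 3. TGM2, a transglutaminase induced by retinoic acid, rose in both lines, from 0.359 ± 0.0990 to 1.10 ± 0.157 CPM in MP38 and from 0.0211 ± 0.00435 to 0.365 ± 0.0761 CPM in 92.1. In 92.1 it passed the count filter only through the VE-822 group, which fixes its direction there and within the count of 4. DHRS3, a retinal reductase induced by retinoic acid, fell in MP38 by 1.19 ± 0.102. Of the other cancer-testis antigens, 18 could be tested in MP38, with 6 higher and none lower, and 2 in 92.1, both lower. PAGE5 and CSAG1 rose in MP38 by 0.47 ± 0.0526 and 0.45 ± 0.0466, and TEX15 fell in 92.1 by 1.25 ± 0.106.

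The panel also contains 8 genes that are higher in class 1 tumours, the class of lower metastatic risk, and 3 reference genes. Of the class 1 genes, 3 were higher and 2 lower in MP38 (median log2 change -0.07), and 2 were higher and 2 lower in 92.1, with a median of -0.01. Without DMSO library 3 of 92.1, these became 4 and 2. Over all genes, 52.3% were called in MP38 and 39.9% in 92.1, or 55.7% without that library. SATB1, a chromatin organizer, rose in both lines, from 5.998 ± 0.358 to 7.47 ± 0.541 CPM in MP38 (0.31 ± 0.0806) and from 48.7 ± 6.94 to 73.3 ± 3.40 CPM in 92.1 (0.55 ± 0.0958), and limma on log2(FPKM + 1) did not call the MP38 change (adjusted p = 0.0763). ID2, an inhibitor of differentiation factors, rose in 92.1 from 84.9 ± 12.5 to 132 ± 0.368 CPM (0.60 ± 0.0933). In MP38 it had a value of -0.11 ± 0.0630, and limma on log2(FPKM + 1) called it lower (-0.12, adjusted p = 0.0413). MTUS1, a microtubule-associated protein gene, rose in MP38 from 60.3 ± 0.845 to 98.3 ± 3.19 CPM (0.70 ± 0.0376). In 92.1 it had a value of 0.04 ± 0.101, which became 0.16 with an adjusted p of 1.28e-04 without DMSO library 3. LTA4H, an enzyme of leukotriene synthesis, fell in MP38 by 0.45 ± 0.0405, and in 92.1 had a value of 0.14 ± 0.0719, or 0.20 (adjusted p = 1.08e-05) without DMSO library 3.

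EIF1B, a translation initiation factor gene, rose in MP38 by 0.69 ± 0.0523 and was lower in 92.1 (-0.27 ± 0.0775, adjusted p = 0.0227). LMCD1, a transcriptional cofactor gene, fell in MP38 (-0.40 ± 0.0443) and in 92.1 (-0.32 ± 0.109, adjusted p = 0.0440). Both 92.1 calls were lost when any 1 of the 3 VE-822 libraries was left out, with library sizes alone, with the filter at a mean of 1 CPM and with limma on log2(FPKM + 1), and that of LMCD1 also with the replicate block (highest adjusted p 0.0905 for EIF1B and 0.177 for LMCD1). Without DMSO library 3 both were at -0.21 and called. FXR1, an RNA-binding protein gene, and ROBO1, a guidance receptor gene, did not pass the threshold in either line, with values of -0.05 and -0.08 in MP38 and -0.07 in 92.1 for both. In MP38, ROBO1 was called lower with library sizes alone (-0.12, adjusted p = 0.00609), with the filter at a mean of 1 CPM (-0.087, adjusted p = 0.0498), with limma (-0.12, adjusted p = 0.0121) and without VE-822 library 3 (-0.12, adjusted p = 0.00677), and FXR1 with library sizes alone (-0.089, adjusted p = 0.0434). EIF1B, FXR1, LMCD1, ROBO1 and SATB1 all lie on chromosome 3, the chromosome whose loss accompanies class 2. Between the DMSO groups, 79.9% of all genes tested were called, 38.9% as higher in 92.1 and 41.0% as lower. Of the class 1 genes, 4 were higher there, 2 were lower and 2, FXR1 and LTA4H, did not pass. Without DMSO library 3 of 92.1 it was 4 and 4, since FXR1 (-0.13, adjusted p = 0.00327) and LTA4H (-0.14, adjusted p = 0.00315) were then called lower, as they also were with library sizes alone and with limma. EIF1B, called higher at 0.23, lost its call with library sizes alone (0.025), with the filter at a mean of 1 CPM (0.15), with limma (0.021) and without DMSO library 2 or 3 of MP38 (0.23 each). SATB1 and ID2 were higher in 92.1 by 3.01 ± 0.110 and 2.92 ± 0.112, and ROBO1 was lower (-2.03 ± 0.0509).

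The reference genes, against which the panel is normalized in clinical use, were not flat. RBM23 fell in both lines, by 0.32 ± 0.0404 in MP38 and by 0.23 ± 0.0519 in 92.1, though limma on log2(FPKM + 1) did not call the 92.1 change (adjusted p = 0.0660). SAP130 fell in 92.1 by 0.31 ± 0.0619 and had a value of 0.09 ± 0.0477 in MP38, where it was called without VE-822 library 2 (0.14, adjusted p = 0.0353). MRPS21 had a value of 0.02 ± 0.0369 in MP38, and its call in 92.1 (0.15 ± 0.0517, adjusted p = 0.0472) was lost when any library other than DMSO library 3 was left out, and with all libraries under RLE size factors (adjusted p = 0.0889), DESeq2 (0.111), no low-count filter (0.239) and the replicate block (0.0741). Under VE-822, 52.3% of all genes were called in MP38 and 39.9% in 92.1. Between the DMSO groups all 3 were called, as were 79.9% of all genes tested. MRPS21 was lower in 92.1 (-0.88 ± 0.0482), and RBM23 and SAP130 were higher (0.82 ± 0.0568 and 0.40 ± 0.0639). Without TMM the median over all genes in that comparison moved from -0.03 to -0.24, and SAP130 was at 0.19. ECM1 exceeded all 3 reference genes in the size of its change in each line and between the lines. The RAB31 rise was of about the size of the RBM23 change, 0.28 beside -0.32 in MP38 and 0.29 beside -0.23 in 92.1.

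**Figure D3:**
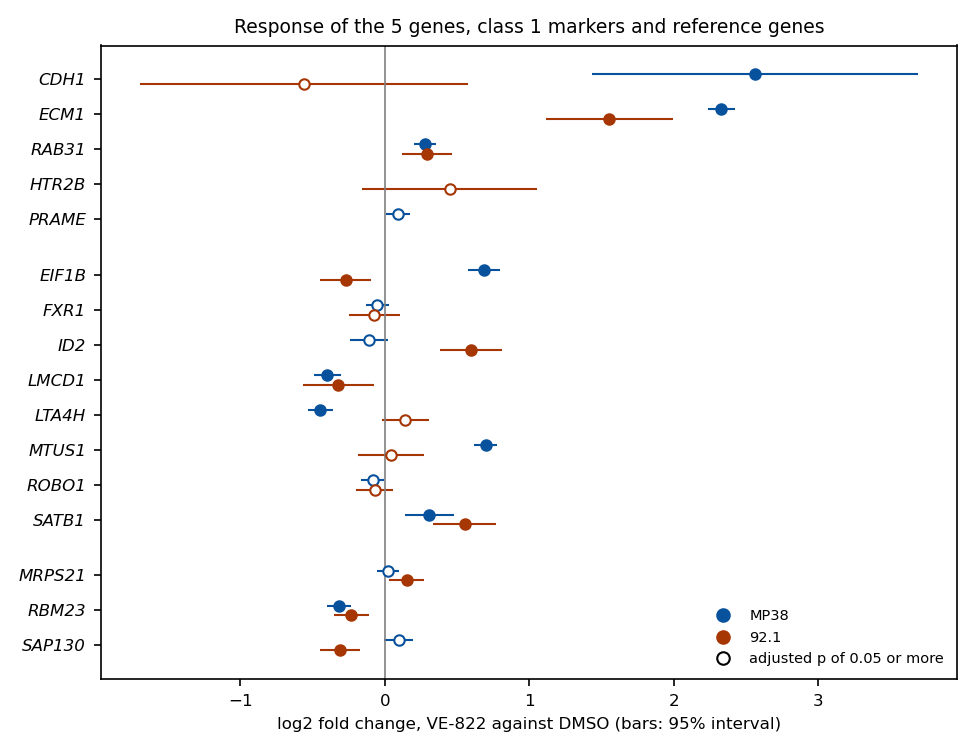
Log2 fold change of VE-822 against DMSO with its 95% interval for the 5 genes, the 8 class 1 genes and the 3 reference genes, in MP38 (blue) and 92.1 (brown). Filled points are called, open points have an adjusted p of 0.05 or more, and a gene without a point in a line had too few counts to test. ECM1 lies at 2.33 and 1.55, outside the range of the class 1 and reference genes, which run from -0.45 to 0.70.

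The difference in response between the lines was tested for all 5 genes in a joint fit of the 12 libraries. 2 were called, both as a smaller response in 92.1, where 40.9% of the 24958 genes tested were called (22.1% higher, 18.8% lower). The ECM1 response was smaller in 92.1 (log2 difference -0.75 ± 0.185, adjusted p = 0.00384), with -0.78 without DMSO library 3 of 92.1. The CDH1 response differed by -3.10 ± 0.877 (adjusted p = 0.00987), and by -2.24 ± 0.696 (adjusted p = 0.00909) without that library and -4.32 without DMSO library 2 of MP38, on counts that never exceeded 81. RAB31 had a value of 0.04 ± 0.0889 (adjusted p = 0.734). HTR2B and PRAME had values of -0.99 ± 1.44 and -0.20 ± 1.17, with 95% intervals from -4.06 to 2.08 and from -2.68 to 2.28, since each was near 0 counts in one of the lines. The dose was set separately for each line, so dose and line cannot be told apart.

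For each gene, the 3 protein-coding genes with the most similar profile over the 12 libraries were found among genes averaging 5 CPM or more, by the root mean square difference in log2 CPM after centring each gene on its mean. Libraries of a group share their line and treatment, so the points are not independent and no test is given. The differences were smallest for RAB31, whose own profile varied least, so they do not rank its matches above those of other genes. SH3BP4, an endocytic adaptor gene, differed from RAB31 by 0.0403, NECTIN2, an adhesion gene of the adherens junction, by 0.0591 and CHFR, a mitotic checkpoint gene, by 0.0765, against a median of 0.523 over 10912 candidates. All 3 also dipped in DMSO library 3 of 92.1, which was among the libraries used to choose them. ECM1 was most like KCP (0.375), ANXA1 (0.473) and MYEOV (0.572), against a median of 2.48. ANXA1, which encodes annexin A1, went from 172 to 533 CPM in MP38 and from 6.73 to 36.4 CPM in 92.1.

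HTR2B was most like LIN7A (0.393), BCAN (0.498) and ZDHHC4 (0.502), against a median of 3.92. All 3 were nearly restricted to 92.1, as a choice by likeness to HTR2B requires. BCAN, which encodes the proteoglycan brevican, had means of 242 and 376 CPM in 92.1 with DMSO and VE-822 and of 1.09 and 1.66 CPM in MP38. PRAME was most like TNC (0.660), PDLIM4 (1.36) and SCCPDH (1.38), against a median of 7.46. TNC, which encodes the matrix protein tenascin-C, had means of 1552 and 1187 CPM in MP38 and 0.00300 and 0.0381 CPM in 92.1. CDH1 had no close match, since its nearest genes SLC16A6 (0.862), KLF5 (0.866) and TLR6 (0.878) were only a little nearer than the median of 1.35.

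**Figure D4:**
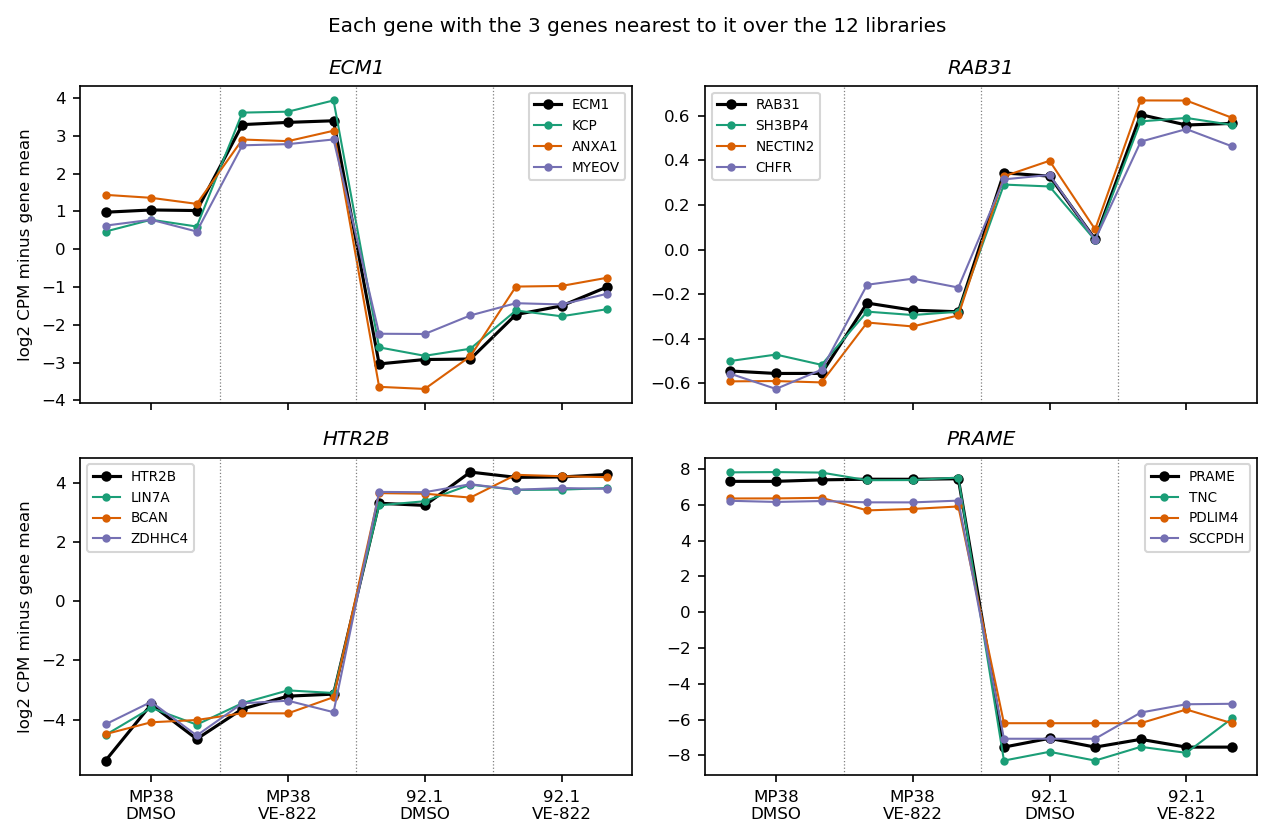
Log2 CPM minus each gene's own mean over the 12 libraries, for ECM1, RAB31, HTR2B and PRAME (black) and the 3 genes nearest to each (coloured), with dotted lines between groups and libraries 1 to 3 in order within each. The vertical axes differ. The RAB31 panel spans little more than 1 log2 unit and the PRAME panel over 15.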

How the data were processed

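Per the labels' protocols, libraries were built from poly(A) RNA (NEBNext Ultra II). The authors deposited raw counts per gene and FPKM values in 1 table of each kind for each cell line. The FPKM values, per the file headers and checked here, are the deposited counts scaled for gene length and library total, to within 5e-04. The submitters' processing notes name cutadapt 4.8, FastQC 0.12.1, MultiQC 1.7, STAR 2.7.11a, featureCounts 2.0.6 and GRCh38.p13. Strand and other counting settings are not given in the sources used here.

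The 5 genes, the gene lists and the tests were chosen with earlier results of these data known. Genes were kept by filterByExpr (minimum count 10, minimum total 15) and tested with edgeR 4.0.16 in R 4.3.3 (TMM, quasi-likelihood F test, two-sided), with p-values adjusted over all genes tested and called below 0.05. VE-822 was compared with DMSO within each line. The DMSO groups, and the difference in response, were compared over the features in both tables. SE was taken from the F statistic. CPM uses TMM factors of all 12 libraries, given as mean ± SD, n = 3. Named genes are the 5 genes, the panel's class 1 and reference genes, up to 4 genes of each other list with the smallest adjusted p in a comparison, and the 3 nearest genes. The precision of a count follows from library totals of 54415628 to 63638976 in MP38 and 112374503 to 137664800 in 92.1. Counting intervals are at 95% and cover counting error only. Alternatives were DESeq2 1.42.0, limma 3.58.1 on log2(FPKM + 1), other scalings and filters, a replicate block, each library left out and, added after seeing the data, a robust fit. The scripts were tested on simulated counts.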

Additional observations from a re-analysis of the deposited data

Results flagged for a closer look

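The response to VE-822 differed between the lines, by the interaction test, for CDH1 and ECM1 among the 5 genes. For CDH1 the 92.1 response minus the MP38 response was -3.10 on the log2 scale (edgeR adjusted p = 0.00987), from log2 fold changes of 2.56 in MP38 and -0.56 in 92.1, on at most 81 counts per library. In the MP38 test, CDH1 passed the count filter only through the VE-822 group. For ECM1 the difference was -0.75 (adjusted p = 0.00384), from 2.33 in MP38 and 1.55 in 92.1, and ECM1 was higher with VE-822 in 3 of 3 libraries of each line.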

How the results depend on the processing

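Over the alternatives, 265 values recomputed for the 5 genes kept their direction and side of the threshold, 15 turned sign, 9 lost a call and 4 gained one. ECM1 kept its call in all 4 comparisons under every alternative in which it was tested. PRAME in MP38 passed the threshold with DESeq2 (0.092, adjusted p = 0.0287) and without DMSO library 3, its range without 1 library being 0.071 to 0.11. In 92.1, the genes called lower over all genes ranged from 3343 to 6899 without 1 library, the last without DMSO library 3, and the number of the 5 genes called higher ranged from 1 to 3. CDH1 in MP38 ranged from 1.97 to 3.71. In 92.1, RAB31 ranged from 0.17 to 0.33 and CDH1 from -0.90 to 0.32. HTR2B there ranged from 0.24 to 0.88, and passed with no low-count filter (0.41, adjusted p = 0.0167). CDH1 between the DMSO groups was 1.89 (adjusted p = 0.0650) with library sizes alone, 0.056 (0.154) with limma on log2(FPKM + 1), 2.10 (0.0519) with the robust fit and 1.21 to 3.28 without 1 library. In the difference between the lines, 1 gene was lower with a mean of at least 1 CPM, which left CDH1 out. RAB31 there was -0.0062 with RLE size factors and with DESeq2, and -0.092 to 0.094 without 1 library. HTR2B there was 0.49 with limma on log2(FPKM + 1), and PRAME -1.74 to 1.45 without 1 library. Of the other genes, these turned sign. MRPS21 in MP38 was -0.016 with library sizes alone and with limma, and -0.0040 to 0.041 without 1 library. MTUS1 in 92.1 was -0.042 to 0.16 without 1 library. ROBO1 in 92.1 was 0.0010 with library sizes alone and 0.00068 with limma, and FXR1 there 0.0022 with limma. FXR1 between the DMSO groups was -0.13 to 0.0030 without 1 library. LAMB3 in the difference was called in opposite directions. It was 1.02 ± 0.214 with edgeR (adjusted p = 0.00116) and -0.19 with limma on log2(FPKM + 1) (adjusted p = 0.00698). The cause was not tested for any of these.

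With library sizes alone, 62.0% of the calls in the difference between lines were higher, against 53.9% with TMM. The labels do not state whether libraries with the same number were handled together. Correlations of same-numbered deviations from the group means were -0.0049, 0.05 and -0.02 in MP38 and 0.05, 0.07 and 0.098 in 92.1, where each library was nearest to its own number. With the replicate block, CDH1 between the DMSO groups was 1.92 (adjusted p = 0.0942), and no other call among the 5 genes changed. With the block, calls over all genes in 92.1 were 4429 higher and 4333 lower, against 4658 and 4498. Depth limits CDH1 in both lines, HTR2B in MP38 and PRAME in 92.1, where a count of 0 over a DMSO group would still allow up to 0.0148 CPM in MP38 and 0.00907 CPM in 92.1.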
